A study of Mus musculus with 4 samples.

Results

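Galntl6, Wwox, Bcas3, Limch1, Ulk4 and Apba2 are 6 long mouse genes at which HOXA5 peaks were found repeatedly in embryonic lung. They were chosen by their number of shared peaks, which was 4 or more for each, out of 21779 protein-coding genes. A shared peak is one called in both replicates with at least 1 bp of overlap. It counted for a gene when its summit lay inside the gene's span, or within 100 kb of it with that gene as the nearest protein-coding one. By this count 15 of the 21779 genes (0.0689%) had 4 or more shared peaks, and 9 of those are not among the 6. The number of shared peaks set the membership, so it is given as a description.

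The measurements are chromatin immunoprecipitation with sequencing (ChIP-seq) of embryonic mouse lung, collected at E15.5. In every library both alleles of the endogenous Hoxa5 gene carried a FLAG epitope (genotype Hoxa5FLAG/FLAG), and HOXA5 was precipitated with a FLAG antibody. The 2 immunoprecipitates, replicates 1 and 2, each had their own peak list. The inputs and any lungs without the tag were not analysed here, so peaks cannot be set against a control, and the read depth behind the lists is unknown. The files hold no expression values, so the tissue could not be checked against marker genes.

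HOXA5 is a homeodomain transcription factor of the lung mesenchyme, needed in mouse for normal formation of the trachea and lung. Homeodomains bind short AT-rich sequences, and HOX proteins often bind together with PBX and MEIS partners. Transcription factors are commonly found far from promoters, inside introns and between genes. The 6 genes belong to no single pathway. Galntl6 encodes a member of the family of enzymes that start mucin-type O-glycosylation. Wwox encodes an oxidoreductase with WW domains, known in human as a tumour suppressor whose gene spans a common fragile site. Bcas3, also called rudhira in mouse, encodes a cytoskeleton-associated protein of migrating endothelial cells. Limch1 encodes a protein with a LIM and a calponin homology domain that acts on non-muscle myosin in human cells. Ulk4 encodes a pseudokinase of the unc-51-like family, and Apba2 encodes an adaptor that binds the amyloid precursor protein in neurons.

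The 6 genes had 31 of the 2175 shared peaks. The separate lists placed 46 of 4289 peaks (replicate 1) and 35 of 2832 peaks (replicate 2) at these genes, and 33 in each list had a partner. Of the 31 shared peaks, 27 had their summit inside a gene. Narrow peaks, with both partners at most 1000 bp long, made up 22, and 9 had a partner over 1 kb. Galntl6, Wwox, Bcas3 and Limch1 had 20 shared peaks, of which 18 were narrow. Ulk4 and Apba2 had 11, of which 7 were over 1 kb. This grouping was made after the lengths were seen and carries no test.

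Fold enrichment is given throughout as the authors' peak caller reported it at each peak's summit, within its own list. Over the 4 genes with mostly narrow peaks the median fold was 4.89 in replicate 1 and 4.13 in replicate 2. At Ulk4 and Apba2 it was 2.88 in replicate 1 and 2.73 in replicate 2. Where several peaks of a list merged into 1 shared peak, its fold is that of the highest. At least 1 pair of overlapping partners had summits within 100 bp of each other in 18 of the 20 shared peaks of the first 4 genes and in 7 of the 11 at Ulk4 and Apba2. Taking only the partners with the highest fold, the counts were 18 of 20 and 5 of 11. By that measure 1558 of the 2144 other shared peaks (72.7%) had summits within 100 bp.

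**Figure D1:**
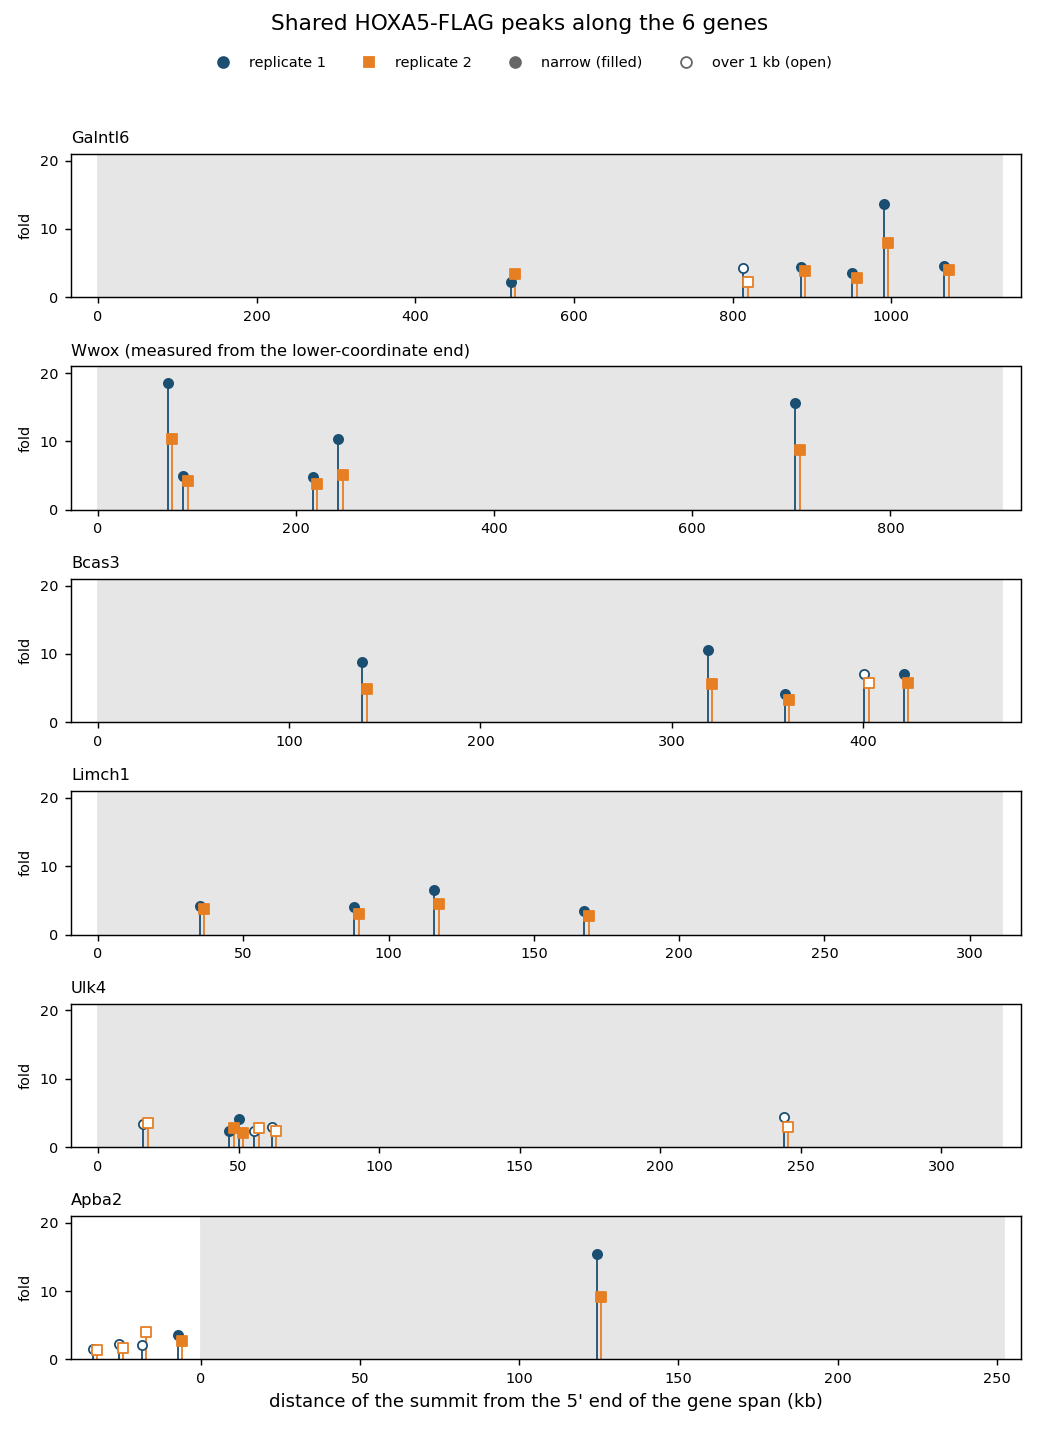
Shared peaks along each gene. The horizontal axis is the distance of the summit from the 5' end of the gene span in kb (for Wwox, from the end with the lower coordinate), the grey field is the gene span, and the vertical axis is fold enrichment in replicate 1 (circles) and replicate 2 (squares). Each pair of symbols stands at the replicate 1 summit, moved apart slightly to keep both visible; filled symbols are narrow shared peaks and open ones have a partner over 1 kb. Wwox held 3 peaks above 10-fold in replicate 1, while the open symbols at Ulk4 and Apba2 sit low and, but for 1 in Ulk4, close together near the 5' ends.

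Wwox (chr8:114439635-115352712, 913 kb) had 5 shared peaks, all narrow and all inside the gene. Its strand is not in the sequence table used, so positions run from the lower coordinate. The first peak (chr8:114512103-114512808) was enriched 18.5-fold in replicate 1 and 10.3-fold in replicate 2. The last (chr8:115145648-115146188) had 15.6-fold in replicate 1 and 8.80-fold in replicate 2. These stood 51st and 80th in fold among the 2175 shared peaks in replicate 1, and 62nd and 91st in replicate 2. A peak at chr8:114684096-114684537 had 10.4- and 5.07-fold in replicates 1 and 2. The other two, at chr8:114527530-114528139 and chr8:114658490-114658831, had 4.95- and 4.83-fold in replicate 1 and 4.20- and 3.79-fold in replicate 2. In each list the same 3 Wwox peaks were therefore the highest. Partner summits were 2 to 38 bp apart. Of the 5 summits, 4 lay between 7.97% and 26.8% of the gene's length, and the fifth stood apart at 77.4%, after a gap of 462 kb.

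Galntl6 (chr8:57772489-58912531, 1140 kb, minus strand) is the longest of the 6 and had 6 shared peaks inside the gene. They lay between 45.9% and 93.8% of the way from the 5' end, and 5 of them lay at or beyond 71.6%, towards the 3' end. The highest (chr8:57918822-57919327) reached 13.7-fold (replicate 1) and 8.01-fold (replicate 2). Its summits were 10 bp apart, at 113th place in replicate 1 and 117th in replicate 2 among the shared peaks. The next in replicate 1 (chr8:57842616-57843151) had 4.55- and 4.06-fold in replicates 1 and 2, and the peak at chr8:58023452-58024018 had 4.41- and 3.79-fold. Thus 1 Galntl6 peak stood well above the others in both lists. The remaining 3 had 3.55-, 4.22- and 2.29-fold in replicate 1, against 2.85-, 2.24- and 3.34-fold in replicate 2. One of them, at chr8:58095403-58096426, was 1024 bp long in replicate 1 and 300 bp in replicate 2, so it fell just past the length limit in 1 list. The 5' part of the gene held no shared peak for 523 kb from its end. A single peak of replicate 1 lay there without a partner, with 2.63-fold enrichment. With a −log10 q of at least 5 asked of both lists, or with reciprocal overlap, Galntl6 kept a count of only 3.

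Bcas3 (chr11:85353110-85826058, 473 kb, plus strand) had 5 shared peaks inside the gene, 4 of them between 67.7% and 89.4% of its length. The strongest in replicate 1 (chr11:85672799-85673287) had 10.5-fold enrichment there and 5.54-fold in replicate 2. A peak nearer the 5' end (chr11:85492166-85492639) had 8.82- and 4.84-fold in replicates 1 and 2. A pair of peaks farther on, at chr11:85754646-85755714 and chr11:85775565-85775996, had 7.08- and 7.06-fold in replicate 1 and 5.69- and 5.80-fold in replicate 2. The order of these 4 peaks differed between the lists, and in replicate 2 they lay between 4.84- and 5.80-fold. The first of the pair was 583 bp long in replicate 1 and 1069 bp in replicate 2, with summits 8 bp apart. The fifth peak (chr11:85713000-85713800) had 4.10- and 3.26-fold in replicates 1 and 2 and lay inside Bcas3os1, a long noncoding RNA gene listed at chr11:85702200-85719744.

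The Bcas3 peak at chr11:85775565-85775996 lay at an annotated transcription start. Its summit was 68 bp in replicate 1 and 74 bp in replicate 2 from the start of Bcas3os2, a long noncoding RNA gene on the opposite strand (chr11:85766833-85775680). It was the only shared peak at the 6 genes whose summit fell in a promoter window, which runs from 250 bases before to 50 after a listed start. The window covered by this peak is shown here because it is the one place among the 31 peaks where sequence could be read under a summit. It comes from RefSeq, build GRCm38.p6, minus strand, chr11:85775631-85775930, written 5′ to 3′, with the bases within 20 of the replicate 1 summit in capitals.
Bcas3os2: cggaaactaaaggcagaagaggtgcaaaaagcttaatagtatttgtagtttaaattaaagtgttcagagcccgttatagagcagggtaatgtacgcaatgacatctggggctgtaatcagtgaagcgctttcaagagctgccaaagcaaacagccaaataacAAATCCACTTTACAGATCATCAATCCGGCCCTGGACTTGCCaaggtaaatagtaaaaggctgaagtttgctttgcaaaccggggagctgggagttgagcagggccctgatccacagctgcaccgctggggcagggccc
Both lists' summits lie in this window, and the replicate 1 summit is base 183. The homeodomain core TAATTA had no match in it on either strand, nor did TGATNNAT, a form bound by PBX and HOX proteins together. Of all 32851 promoter windows of the same length, 5.29% held TAATTA and 8.85% held TGATNNAT. The absence of these letters says nothing about binding by other sequences or partners.

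Past its 3' end Bcas3 is followed by Tbx2 and Tbx4, T-box factor genes of the lung mesenchyme. Tbx2 begins 6.56 kb beyond Bcas3, and the nearest Bcas3 peak lay 56.9 kb from Tbx2. Tbx4 held 1 shared peak and Tbx2 had none. All 5 Bcas3 peaks were assigned to Bcas3 only because their summits lie within its span.

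Limch1 (chr5:66745889-67057159, 311 kb, plus strand) had exactly 4 shared peaks, all narrow and all in the first 54.0% of the gene. It is the member just inside the limit. The highest (chr5:66862099-66862616) reached 6.46-fold (replicate 1) and 4.50-fold (replicate 2). It lay 4.92 kb from the second of 3 starts listed for Limch1, the shortest such distance at this gene. The other peaks, at chr5:66781493-66781937, chr5:66834700-66835219 and chr5:66913846-66914300, had 4.26-, 4.07- and 3.42-fold in replicate 1 and 3.70-, 3.03- and 2.77-fold in replicate 2. The 4 peaks thus kept 1 order of fold in both lists. Neighbours were 27.5 to 53.2 kb apart, the most even spacing of the 6 genes.

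Ulk4 (chr9:120964454-121286159, 322 kb, minus strand) had 6 shared peaks inside the gene, and 4 of them lay together in 16.3 kb (chr9:121223019-121239367). No Ulk4 peak exceeded 4.38-fold in replicate 1 or 3.53-fold in replicate 2. The peak with 4.38-fold (chr9:121040925-121042249) lay alone at 76.1% of the gene, had 2.94-fold in replicate 2 and measured 1325 and 902 bp in replicates 1 and 2. Over all peaks within the cluster, with or without a partner, folds were 2.06 to 4.04 in replicate 1 and 1.96 to 2.77 in replicate 2. Not all peaks there corresponded singly between the lists. A peak of 5102 bp in replicate 2 overlapped 3 separate peaks of replicate 1, and one of 3759 bp in replicate 1 overlapped 2 of replicate 2. The highest partners of a shared peak in the cluster had summits up to 3497 bp apart. Taking the closest overlapping partners instead, summits were within 100 bp at 2 of the 4, 36 bp apart at chr9:121234887-121235829 and 16 bp apart at chr9:121223019-121228120. Peaks covered 50.8% of the cluster in replicate 1 and 53.9% in replicate 2. Counted with neighbours within 10 kb as 1, an alternative chosen after seeing the data, Ulk4 had 3 shared peaks, and with narrow peaks alone it had 2.

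The remaining Ulk4 peak (chr9:121268855-121270359) lay nearest the 5' end of the gene span, 17.0 kb from it. The listed Ulk4 start lies inside the span, 7.97 kb from the peak's summit. This peak lay inside the long noncoding RNA gene Gm34735 (chr9:121267769-121270346). Its enrichment was 3.38-fold (replicate 1) and 3.53-fold (replicate 2). In replicate 2 it reached into the promoter window of Gm34735 by 63 bp, and its summit lay 618 bp from that start, whereas the replicate 1 summit lay 1148 bp away. The window is shown because its sequence is repetitive and it touches one of the over-1-kb peaks. It is from RefSeq, build GRCm38.p6, minus strand, chr9:121270297-121270596, 5′ to 3′, with the bases inside the replicate 2 peak in capitals.
Gm34735: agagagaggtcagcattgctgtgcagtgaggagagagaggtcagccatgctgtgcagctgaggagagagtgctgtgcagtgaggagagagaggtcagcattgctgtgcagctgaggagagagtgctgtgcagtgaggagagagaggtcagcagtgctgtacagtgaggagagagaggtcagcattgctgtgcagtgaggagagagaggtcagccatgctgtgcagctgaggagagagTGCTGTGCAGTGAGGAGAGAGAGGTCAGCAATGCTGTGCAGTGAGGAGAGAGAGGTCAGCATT
In this window 67.1% of bases equalled the base 84 positions away, the best of all steps from 10 to 100. In the Bcas3os2 window above the best value was 32.3%, and the median over all windows was 33.8%. Only 38 of the 32851 windows (0.116%) were as repetitive as that of Gm34735. The window was shown for its repeats, so this share is a description. Whether repeats underlie the Ulk4 peaks was not tested. Of their sequence only these 63 bp were read, from the replicate 2 peak and without its summit. Neither motif occurred in the window.

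Apba2 (chr7:64501560-64753878, 252 kb, plus strand) had 5 shared peaks but held only 1. That one (chr7:64626342-64626962) was narrow, at 15.4-fold (replicate 1) and 9.17-fold (replicate 2), with summits 20 bp apart, and 82nd and 84th place in fold among the shared peaks in replicates 1 and 2. The other 4 lay 6.30 to 33.1 kb before the gene. Of these, 3 had a partner over 4 kb in both lists, at chr7:64465847-64472491, chr7:64474243-64478614 and chr7:64480279-64493150. They had 1.52-, 2.25- and 2.05-fold in replicate 1, against 1.41-, 1.61- and 4.00-fold in replicate 2. The last of the 3 was a single peak of 12507 bp in replicate 1 but 2 peaks in replicate 2, and the 4.00-fold belongs to the one nearer the gene, whose summit lay 5207 bp from that of replicate 1. The other replicate 2 peak there had 1.72-fold, with its summit 11 bp from that of replicate 1. The peak inside Apba2 was thus narrow and high, and this outer chain broad, with lower fold in both lists. The fourth outer peak (chr7:64495052-64495980) was narrow, with 3.61- and 2.63-fold in replicates 1 and 2. Apba2 kept its count of 5 only through the outer peaks, since 1 summit lay inside the gene and 2 inside or within 10 kb.

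The chain before Apba2 spanned 27.3 kb, of which peaks covered 88.3% in replicate 1 and 85.3% in replicate 2. The outer edges of its 3 shared peaks lay 8 to 365 bp apart between the lists. At the farthest the left edges were 50 bp and the right edges 8 bp apart, at the next 21 and 55 bp, and at the one nearest the gene, split in replicate 2 only, 10 and 365 bp. Replicate 1 also had a 1.77-fold peak without a partner in the chain. From the farthest inwards, the authors' −log10 q of the 3 was 4.12, 30.5 and 19.2 in replicate 1 and 2.92, 13.2 and 63.7 in replicate 2. The narrow peak inside Apba2 had −log10 q of 186 in replicate 1 and 68.0 in replicate 2.

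**Figure D2:**
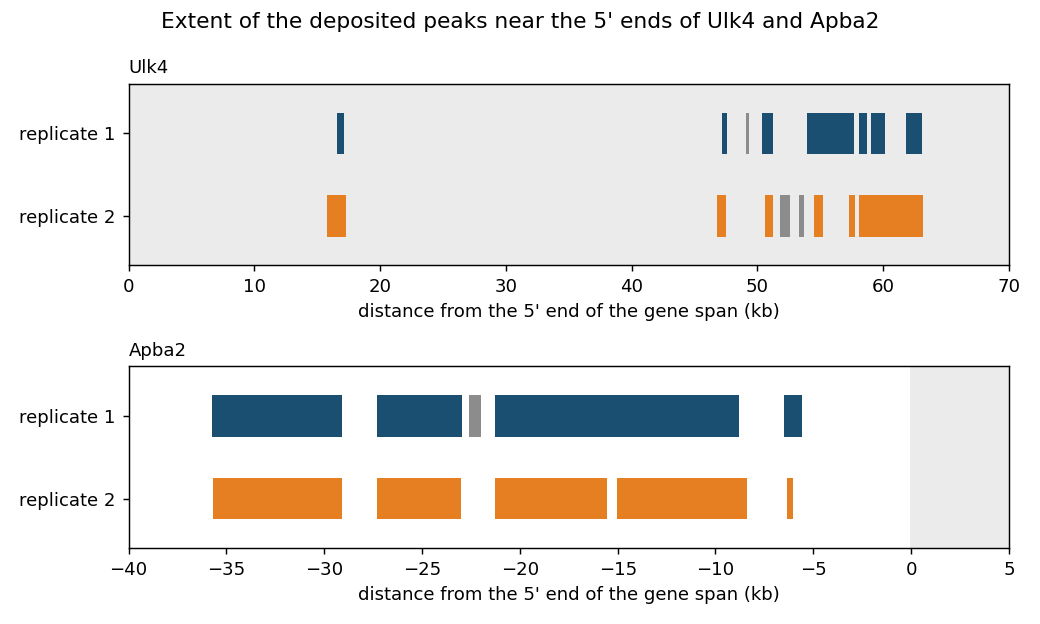
Extent of every deposited peak near the 5' ends of Ulk4 and Apba2. The horizontal axis is the distance from the 5' end of the gene span in kb, bars are peaks of replicate 1 (upper row) and replicate 2 (lower row), grey bars had no partner in the other list, and the grey field is the gene. Bars of both genes are broken up differently in the 2 lists; the Apba2 bar of 12507 bp in replicate 1 stands over 2 bars of replicate 2, with outer ends 10 and 365 bp apart.

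Peaks without a partner were next counted. At the 6 genes 13 of the 46 replicate 1 peaks had none in replicate 2, so 71.7% had a partner (95% Wilson interval 57.5 to 82.7), beside 51.2% in the whole list. In replicate 2, 33 of 35 had a partner (94.3%, 81.4 to 98.4), beside 77.6% in the whole list. The genes were selected on shared peaks, and peaks of the same gene are not independent. These shares and their intervals are therefore a description. The 13 had between 1.77- and 5.14-fold enrichment. Bcas3 held 3 of them, with 4.58-, 5.04- and 4.95-fold, which is more than its weakest shared peak had in replicate 1. Wwox held 3 with 3.18- to 3.87-fold, below all of its shared peaks. Limch1 held 2 with 2.95- and 2.43-fold, also below its shared peaks, and Apba2 had 3, Galntl6 1 and Ulk4 1. Both replicate 2 peaks without a partner lay in the Ulk4 cluster, at 2.37- and 1.96-fold.

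Narrow and over-1-kb peaks at the 6 genes were set beside the rest of the shared peaks. Over-1-kb peaks were 9 of 31 (29.0%, Wilson interval 16.1 to 46.6) at the 6 genes and 523 of 2144 (24.4%, 22.6 to 26.3) elsewhere. Narrow peaks had a median of 4.69-fold at the 6 genes and 4.94-fold elsewhere in replicate 1, and 3.92- and 3.80-fold in replicate 2. The over-1-kb peaks had medians of 2.88-fold at the 6 genes and 3.30-fold elsewhere in replicate 1, and 2.73- and 3.29-fold in replicate 2. Fold of the members' narrow peaks thus lay near that of other narrow peaks. A fold of at least 10 in replicate 1 was found at 6 of the 31 shared peaks of the 6 genes and at 238 of 2144 elsewhere. Such peaks were narrow in general, 6 of 6 at the 6 genes and 235 of 238 elsewhere. Wwox held 3 while Galntl6, Bcas3 and Apba2 held 1 each. Peaks of 1 gene share their surroundings and are not independent, so no test was made of these differences.

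**Figure D3:**
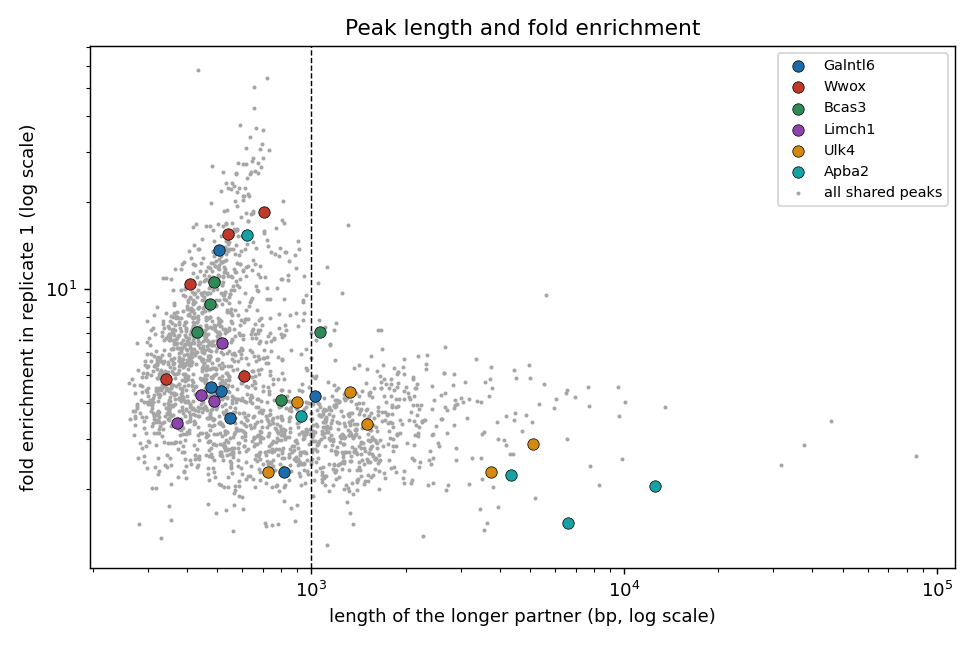
Length of the longer partner in bp against fold enrichment in replicate 1, both on log scales, for the shared peaks of the 6 genes (coloured) and for all 2175 shared peaks (grey). The dashed line marks 1000 bp. All 6 coloured points of at least 10-fold lie left of it, and the points beyond 3 kb, 5 in number, belong to Ulk4 and Apba2.

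Peak number was then set against gene length. Among protein-coding genes the share holding at least 1 shared peak was 0.191% under 10 kb, 1.24% at 10 to 50 kb, 5.30% at 50 to 100 kb, 10.0% at 100 to 200 kb, 25.6% at 200 to 500 kb and 48.0% at 500 kb and longer. Shared peaks per Mb varied far less, being 0.464, 0.522, 0.815, 0.810, 1.17 and 0.819 in the same classes. Across the 21779 genes, length and the number of shared peaks inside correlated at Spearman's rho 0.238 and Pearson's r 0.385, and across the 990 genes of at least 200 kb at rho 0.219 and r 0.205. Genes are no independent replicates, and all counts come from the same 2 libraries. With 1 or more shared peaks, inside or nearby, there were 1299 genes (5.96%). Of the 990 genes of at least 200 kb, 12 (1.21%) had 4 or more, and they include all 6 members.

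**Figure D4:**
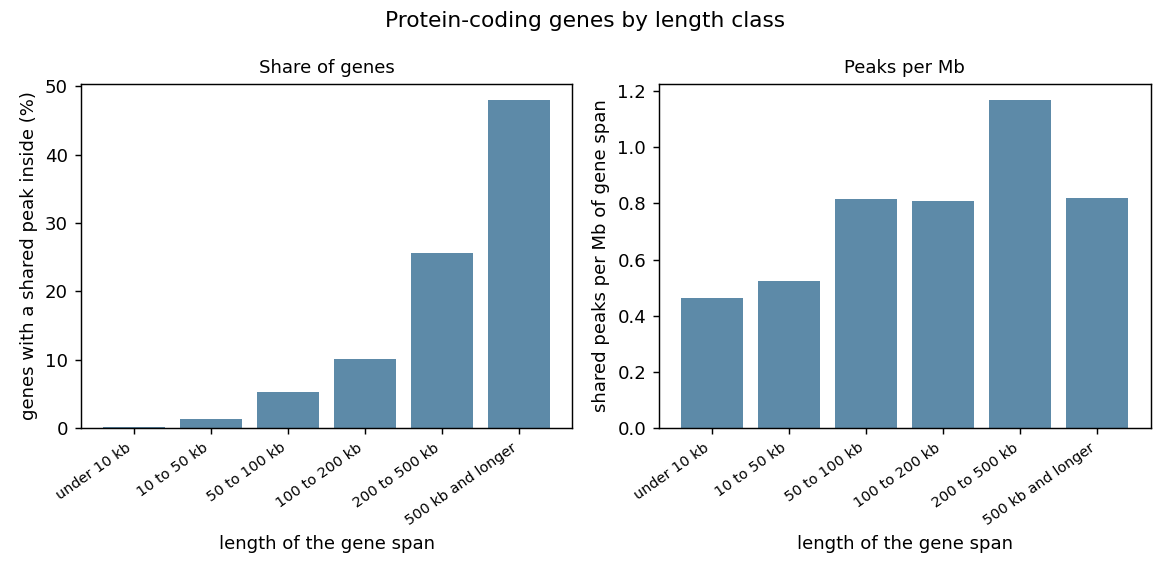
Protein-coding genes in 6 classes of length. Left, percent of genes with a shared peak inside; right, shared peaks per Mb of gene span. The share climbs to 48.0% in the longest class, while the number per Mb stays between 0.464 and 1.17.

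Among the 6 genes alone, length and the number of shared peaks inside correlated at rho 0.736 and r 0.535. These are 6 points chosen by their number of shared peaks, so no relation to length is drawn from them. Apba2, the shortest, entered with 1 peak inside although it was chosen with 5. The number of shared peaks per Mb varied among the 6 genes. Galntl6 and Wwox, 37th and 72nd longest of all protein-coding genes, had 5.26 and 5.48 shared peaks per Mb inside the gene. Bcas3, 253rd in length, had 10.6 per Mb, Limch1, 527th, had 12.9, and Ulk4, 500th, had 18.7. Apba2, 713th, had 3.96. With narrow peaks alone Ulk4 had 6.22 per Mb, and Limch1 with 12.9 was then the densest of the 6. In all, the 6 genes held 27 shared peaks in 3.41 Mb, or 7.91 per Mb, beside 0.798 per Mb over the other protein-coding genes, a difference that the choice of members fixes.

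Other genes of the same size mostly held none. The members were chosen for 4 or more shared peaks, a number that only 9 other protein-coding genes reached. Lower counts at genes of their length were thus nearly fixed by that choice and are given as a description. Between the lengths of Apba2 and Galntl6 lay 671 other protein-coding genes. Of these, 449 (66.9%) held no shared peak, 167 held 1, 38 held 2, 16 held 3 and 1 held more. The gene closest in length to each member had fewer shared peaks, with 2 at Ptprt (against 6 at Galntl6), 1 at Adamtsl1 (against 5 at Wwox), 1 at Cfap299 (against 5 at Bcas3), none at Vti1a (against 4 at Limch1), none at Otud7a (against 6 at Ulk4) and 1 at Angpt1 (against 5 at Apba2). Of the 5 longest genes, Ptprd had 2 shared peaks, Dmd, Cntnap2 and Lsamp had 1 each, and Lrp1b had none, although each spans more than 2058 kb. A fixed list of 26 very large genes, known for fragile sites in human or for their length, had 18 shared peaks at 15 genes, the most at Fhit with 3, whose highest fold was 3.81 in replicate 1 and 2.90 in replicate 2. The list was drawn up with earlier results known, and the median length of its genes was 1397 kb. A shared peak, inside or nearby, was found at 5.96% of all protein-coding genes. Of those of 500 kb and longer, 48.0% held one inside, a narrower count than that of the 15, which includes nearby peaks. The 15 of 26 is therefore not read as a result about these genes.

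**Figure D5:**
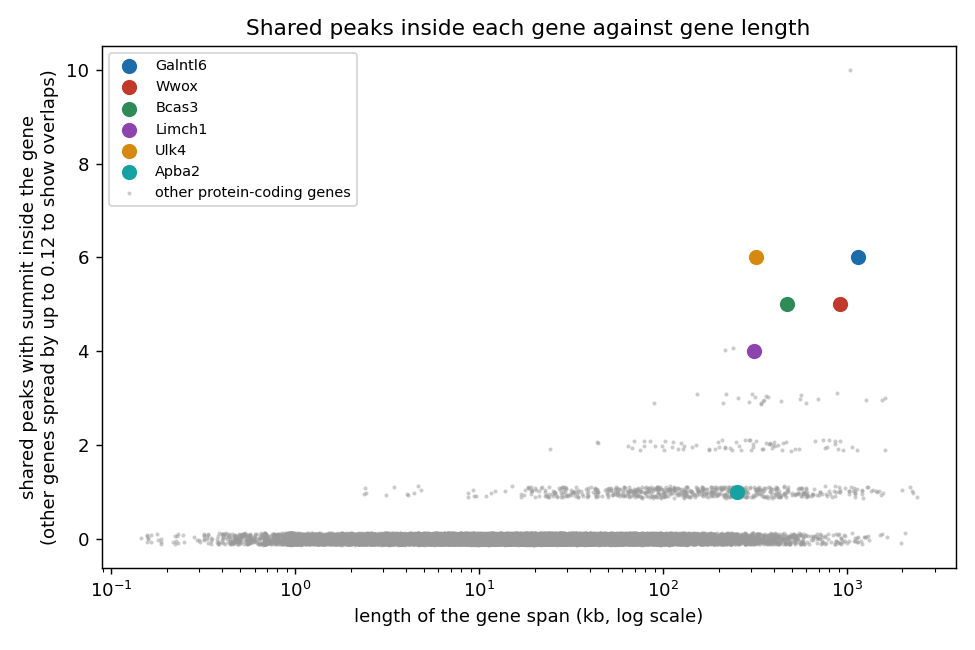
Number of shared peaks with the summit inside each protein-coding gene (vertical axis) against the length of the gene span in kb (horizontal axis, log scale). The 6 genes are coloured and other genes grey, with grey points spread slightly up and down to show overlaps. Apba2 holds 1 and sits among many genes of its length, the other members hold 4 to 6, and the grey point at 10 is Lrmda.

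The 9 other genes with 4 or more shared peaks differed in kind. Lrmda (1037 kb) had 11, of which 9 were narrow. Robo2, Mecom, Smg6, Nfib and Cd47 had 4 each, all narrow. Smg6 (239 kb) and Nfib (217 kb) held all 4 inside, as Limch1 did. Gm52481 on chromosome Y and Gm21119, of 2.35 and 32.3 kb, had 7 and 5, of which 6 and 4 were over 1 kb, and 1 and 0 lay inside the gene. Mid1 had 4 outside the gene, 3 of them over 1 kb. Just below the limit, 34 genes had 3 shared peaks, and 25 of them were at least 200 kb long. The longest of these were Nrxn3, Fhit, Agbl4, Pcdh9, Arhgap24 and Lpp, with best folds of 3.81 (Fhit) to 15.9 (Agbl4) in replicate 1.

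The starts listed for 5 of the members carried no peak, and Wwox had none listed. Promoter sequences were listed for 5 of the 6 genes, in 8 windows, and no peak of either list overlapped one. Over all protein-coding genes, 22 of 21263 such windows (0.103%) overlapped a shared peak, so 0 of 8 does not set the members apart. The shortest distances from a listed start to a shared summit were 4.92 kb at Limch1, 6.45 kb at Apba2, 7.97 kb at Ulk4, 139 kb at Bcas3 and 522 kb at Galntl6.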

How the data were processed

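Peak lists of the 2 HOXA5-FLAG immunoprecipitates were used, as deposited, 1 list per replicate. Per the submitters' processing notes, reads were handled with Trim Galore, Bowtie2 2.5.2, SAMtools 1.18, bedtools 2.31.0 and MACS3 3.0.1 on mm10, listed without order or settings. Which control the peak caller had, and whether problem regions were filtered out, is not stated in the sources used here. The deposited fold enrichment is a ratio at each summit, and the deposited −log10 p and −log10 q are the authors' values too; all −log10 q were above 2. The titles read "wt" but the genotype field names the tagged allele, and peak names of replicate 2 bear a different replicate number; the labels were followed. The labels do not say whether replicates came from separate litters.

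Overlapping peaks were merged into shared peaks, placed at the replicate 1 summit, and given the fold and −log10 q of the partner with the highest fold in each list and the length of its longest partner. Gene spans came from a RefSeq table of GRCm38.p6 (mm10), without genes starting below 3 Mb on chromosomes other than Y; exons and introns were not told apart. Calculations used Python 3.11.15, pandas 2.3.3 and SciPy 1.17.1. The pairing and merging of peaks and their assignment to genes were tested on simulated peaks with single partners. The members and gene lists were chosen with earlier results of these data known. Named besides the members are other genes with 4 or more shared peaks, the longest with 3, those closest in length to a member, the 5 longest, and up to 4 of each gene list; Bcas3 neighbours and noncoding genes at summits were chosen after their positions were seen. No test was made, because the members were chosen by peak number and peaks of 1 gene are not replicates. Wilson intervals treat peaks as independent.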

Additional observations from a re-analysis of the deposited data

How the results depend on the processing

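The 31 shared peaks at the 6 genes stayed between 22 and 31 in every alternative that kept both replicates, and the peaks of single lists were 35 and 46. The count of genes with 4 or more shared peaks moved most with a −log10 q of at least 5 in both lists, which left 3 of the 6 (Wwox, Bcas3 and Limch1). With summits alone inside the gene Apba2 had 1, and with both partners at most 1000 bp Ulk4 and Apba2 had 2 each. With reciprocal overlap Galntl6 had 3 and Ulk4 had 2, and with summits within 100 bp Ulk4 had 3. Counting neighbours within 10 kb as 1, an alternative chosen after seeing the data, left 3 at Ulk4 and 3 at Apba2 and changed no other gene. Shared peaks over 1 kb, 9 in the main count, were 5 with reciprocal overlap, 5 with a limit of 2000 bp, 4 when both partners had to be over 1000 bp, 22 with a limit of 500 bp and, by construction, 0 with both partners at most 1000 bp. Peaks per Mb inside the genes were 7.91, and with 1 list alone 8.79 and 12.02. Of 66 values of single genes, 51 stayed within 1.5 times the main one. Median fold in each list stayed within 1.5 times under every alternative run. No paired analysis was possible because no result comes from a test and the inputs were not analysed here. The unknown depth limits how far weak peaks can be compared.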

Other observations

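Relatives of the 6 genes were counted by family. In the family of enzymes that start mucin-type O-glycosylation, 3 of 18 other genes had a shared peak, of which Galnt18 held 2 (best fold 9.76 in replicate 1 and 5.69 in replicate 2), Galnt17 held 1 (18.8 and 5.83) and Galnt2 held 1 (4.65 and 3.25). No other ULK kinase gene (0 of 4) and none of the 5 other APBA and APBB adaptor genes had one. Among 3 relatives of Limch1, Lima1 held 1 (8.55 and 4.85), and among 5 other WW domain genes, Wwc2 held 1 (2.89 and 3.34). Of all protein-coding genes 5.96% had a shared peak. The other relatives are mostly shorter than the members, with median lengths of 79.4 kb for the glycosylation enzymes, 30.6 kb for the ULK kinases and 23.5 kb for the adaptors, so their counts were not compared with those of the members.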
